A study of Mus musculus with 8 samples.

Results

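The matrix metalloproteases (MMPs), the ADAMTS proteases and the tissue inhibitors of metalloproteases (TIMPs) were followed in the ventral prostate of hSKP2-KI and WT mice. Members were all genes of the expression table whose symbol begins with Mmp, Adamts or Timp followed by a number, which gave 46 of 36333 genes: 23 MMP, 19 ADAMTS and 4 TIMP genes. In hSKP2-KI mice, a P2A-human SKP2 coding sequence sits in exon 1 of the endogenous mouse probasin gene and is expressed from the probasin promoter, which is active in prostate epithelium. Heterozygous knock-in females had been mated to FVB/N males, and the WT group was FVB/N wild type. Each group held 4 males at 12 months of age, with 1 poly-A RNA-seq library of the whole ventral lobes per mouse. The sources used here do not say which knock-in founder line was sequenced or whether the WT mice were littermates.

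MMPs are zinc-dependent proteases that cut collagens, basement membrane, elastin and many cell surface proteins. Most are secreted as inactive proenzymes, and the membrane-type MMPs are held at the cell surface, where MMP14 with TIMP2 activates proMMP2. ADAMTS proteases cut proteoglycans such as versican, trim the amino-terminal ends of fibrillar procollagens, or bind microfibrils. TIMPs block the active site of MMPs, and TIMP3, which binds to the matrix, also blocks several ADAMTS proteases. In the prostate, stromal cells are known sources of MMP2 and of most TIMPs, whereas MMP7 is known as an epithelial MMP and MMP12 as a macrophage elastase.

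The authors deposited TPM, reads per transcript length scaled to the same total in each library, so levels can be compared between genes but the depth behind a value is unknown. Genes with at least 1 TPM in at least 4 of the 8 mice were tested with limma on log2(TPM + 1), and a gene was called when its adjusted p, by the Benjamini-Hochberg method over 13080 tested genes, was under 0.05. All log2 fold changes are hSKP2-KI minus WT on this scale, which understates the change of low genes. Because 1 abundant transcript can dilute all others in TPM, each call is also given after median-ratio scaling, which divides each mouse by its median ratio to the average mouse. Over all tested genes, the median fold change on this log2 scale was 0.23 in the TPM as deposited and -0.01 after median-ratio scaling.

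Skp2, which counts the mouse gene and possibly reads of the human insert, lay at 37.3 to 60.6 TPM in the hSKP2-KI mice and at 1.05 to 2.27 TPM in the WT mice. Pbsn, the gene that received the insert, lay at 93.04 to 173.8 TPM against 3980 to 9232 TPM, so all 8 libraries matched their labels. All 6 ventral luminal secretory genes were tested and summed to 329400 to 354000 TPM in hSKP2-KI and 411300 to 464200 TPM in WT mice, a sum carried by Sbp, Spink1 and Sbpl. Within this list Msmb was called higher (0.96, limma adjusted p = 0.00599) and Spink1 lower (-0.76, adjusted p = 0.0219), and neither after median-ratio scaling (adjusted p = 0.0539 and 0.0788). The 7 seminal vesicle genes summed to at most 0.656 TPM, with Svs2, Svs3a and Pate4 at 0. A listed 0 does not show absence in this table, since 7 of 7 mitochondrial genes looked up stood at 0 in all mice. Nothing in the sources names a sequencing batch.

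Of the 23 MMP genes, 10 lie together within 427 kb of mouse chromosome 9 (chr9:7272514-7699585, GRCm38), in the order Mmp13, Mmp12, Mmp1b, Mmp3, Mmp1a, Mmp10, Mmp8, Mmp27, Mmp20 and Mmp7. Mmp7 and Mmp12 were the only genes of the cluster to reach 1 TPM in any mouse. Their promoters are shown with those of Mmp3 and Mmp13, their low neighbours, as the 100 bases before the RefSeq start site (GRCm38.p6, plus strand), with the AP-1 motif TGAGTCA or TGACTCA, the known binding sequence of Fos and Jun factors, and the TATA motif TATAAA in capitals.

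Mmp7, chr9:7691990-7692089: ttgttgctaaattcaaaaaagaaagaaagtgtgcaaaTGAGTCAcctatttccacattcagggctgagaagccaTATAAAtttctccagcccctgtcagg
Mmp12, chr9:7347274-7347373: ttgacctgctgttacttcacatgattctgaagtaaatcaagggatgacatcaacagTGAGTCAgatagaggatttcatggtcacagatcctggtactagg
Mmp3, chr9:7445722-7445821: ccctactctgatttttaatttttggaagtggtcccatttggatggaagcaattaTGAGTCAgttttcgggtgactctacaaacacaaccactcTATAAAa
Mmp13, chr9:7272414-7272513: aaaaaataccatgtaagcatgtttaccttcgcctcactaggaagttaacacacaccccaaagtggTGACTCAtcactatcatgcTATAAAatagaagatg

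The AP-1 motif began at base -63 of Mmp7, -44 of Mmp12, -46 of Mmp3 and -35 of Mmp13, counted from the start site. RefSeq lists more than 1 start site for Mmp7 and Mmp12, and the stretch with the motif is the one shown. Read on both strands of the 300-base RefSeq promoters, this motif was found in 7 of the 10 cluster genes (also Mmp10, Mmp1a and Mmp1b) and in 0 of the 22 other members with an entry. Among all 32851 promoters, 5.2% held it. The TATA motif (TATAAA or TTTATA) was found in 9 of the 10 cluster genes, in 2 of the 22 others and in 13.6% of all promoters. For both motifs, a member counted if any of its start sites held it, whereas the shares of all promoters count each entry singly. These counts and shares are therefore not like for like. These matches describe the sequence only, and genes with the motif included the highest of the cluster and some listed at 0.

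Of the 46 members, 23 passed the filter on low values and were tested: 11 MMP, 8 ADAMTS and all 4 TIMP genes. Of these, 12 were called higher in hSKP2-KI prostates and 0 lower, against a background of 32.7% of all tested genes called higher and 1.23% called lower. At an unadjusted limma p under 0.05, 1 member, Mmp15, was lower in the deposited values, and 2, Mmp15 and Timp4, after median-ratio scaling. The 12 were Mmp19, Mmp7, Timp3, Mmp17, Adamts10, Mmp14, Adamts2, Mmp2, Timp2, Adamts5, Mmp16 and Mmp23. After median-ratio scaling, 7 members were called higher (Mmp19, Timp3, Mmp17, Adamts10, Mmp14, Timp2 and Mmp16), all of them also called in the deposited values, and 1, Mmp15, was called lower, against backgrounds of 6.91% and 4.25%. The median log2 fold change of the 23 members was 0.66 in the deposited values and 0.41 after scaling, and 19 of the 23 lay above the median of all tested genes in either case. In bulk tissue, fewer or more cells of a type and less or more RNA per cell cannot be told apart.

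**Figure D1:**
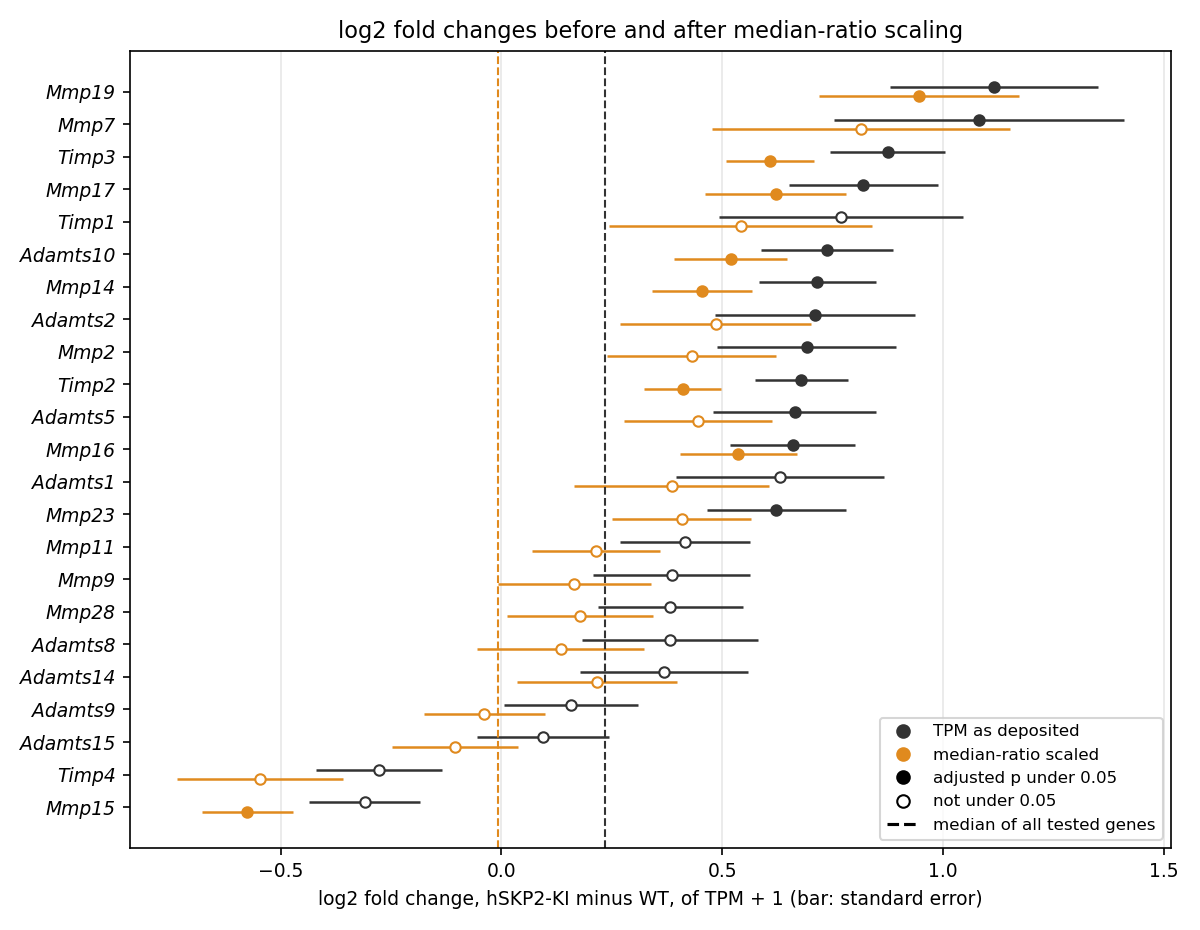
Each point is the log2 fold change (hSKP2-KI minus WT, log2(TPM + 1), x axis) of 1 tested member with its standard error, in the TPM as deposited (dark) and after median-ratio scaling (orange), filled where the adjusted p was under 0.05, and dashed lines mark the medians of all tested genes (0.23 and -0.01). Mmp19 lies at the top with 1.12, Mmp15 and Timp4 lie below 0 under either scaling, and 7 members are filled on the right under both.

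The inhibitors Timp4 and Timp2 had the highest mean TPM of all members. Timp2 and Timp3 rose in hSKP2-KI prostates, under either scaling, whereas Timp1 and Timp4, the most abundant TIMP of WT prostates, did not pass the test. Timp2 (Entrez 21858, chr11:118301061-118355411), the inhibitor that takes part in proMMP2 activation, had 341, 393, 324 and 314 TPM in hSKP2-KI replicates 1 to 4 and 182, 249, 208 and 218 TPM in WT replicates 1 to 4. The groups did not overlap, with means of 343 ± 35.2 and 214 ± 27.8 TPM (SD, n = 4 each). Its log2 fold change was 0.68 (standard error 0.11, limma adjusted p = 0.00219), and after median-ratio scaling it was 0.41 (adjusted p = 0.0189).

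Timp3 (Entrez 21859, chr10:86300412-86349505), the matrix-bound inhibitor, had 77.9, 97.9, 82.2 and 94.2 TPM in the hSKP2-KI mice and 37.0, 58.8, 49.1 and 47.1 TPM in the WT mice. Every hSKP2-KI value lay above every WT value. The means were 88.0 ± 9.53 and 48.0 ± 8.95 TPM (SD, n = 4 each), and the log2 fold change was 0.87 (standard error 0.13, limma adjusted p = 0.00187), which was 0.61 (adjusted p = 0.00709) after median-ratio scaling. Timp2 and Timp3, like Mmp14, were called in all 18 alternatives that tested them.

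Timp4 (Entrez 110595, chr6:115244444-115252205) had 356, 341, 394 and 323 TPM in the hSKP2-KI mice and 554, 357, 485 and 349 TPM in the WT mice. WT replicates 1 and 3 were the highest and the groups overlapped. Its log2 fold change was -0.28 (standard error 0.14, limma adjusted p = 0.142), and after median-ratio scaling it was -0.55 (adjusted p = 0.0878), so its difference passed the threshold in neither. Timp1 (Entrez 21857, chrX:20870166-20874737), an inhibitor often raised in inflamed or injured tissue, had 5.81, 13.1, 6.96 and 4.09 TPM in the hSKP2-KI mice and 4.65, 2.45, 4.54 and 3.29 TPM in the WT mice. The groups overlapped through hSKP2-KI replicate 4, and the log2 fold change of 0.77 (standard error 0.28) had a limma adjusted p of 0.0519. Without that mouse it was 0.98 (adjusted p = 0.0245), with sample quality weights 0.79 (adjusted p = 0.0373), and after median-ratio scaling of all mice it was 0.54 (adjusted p = 0.275). In hSKP2-KI prostates the order of levels was Timp4 (354 ± 30.3), Timp2 (343 ± 35.2), Timp3 and Timp1, of which the first pair did not differ beyond their spread.

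**Figure D2:**
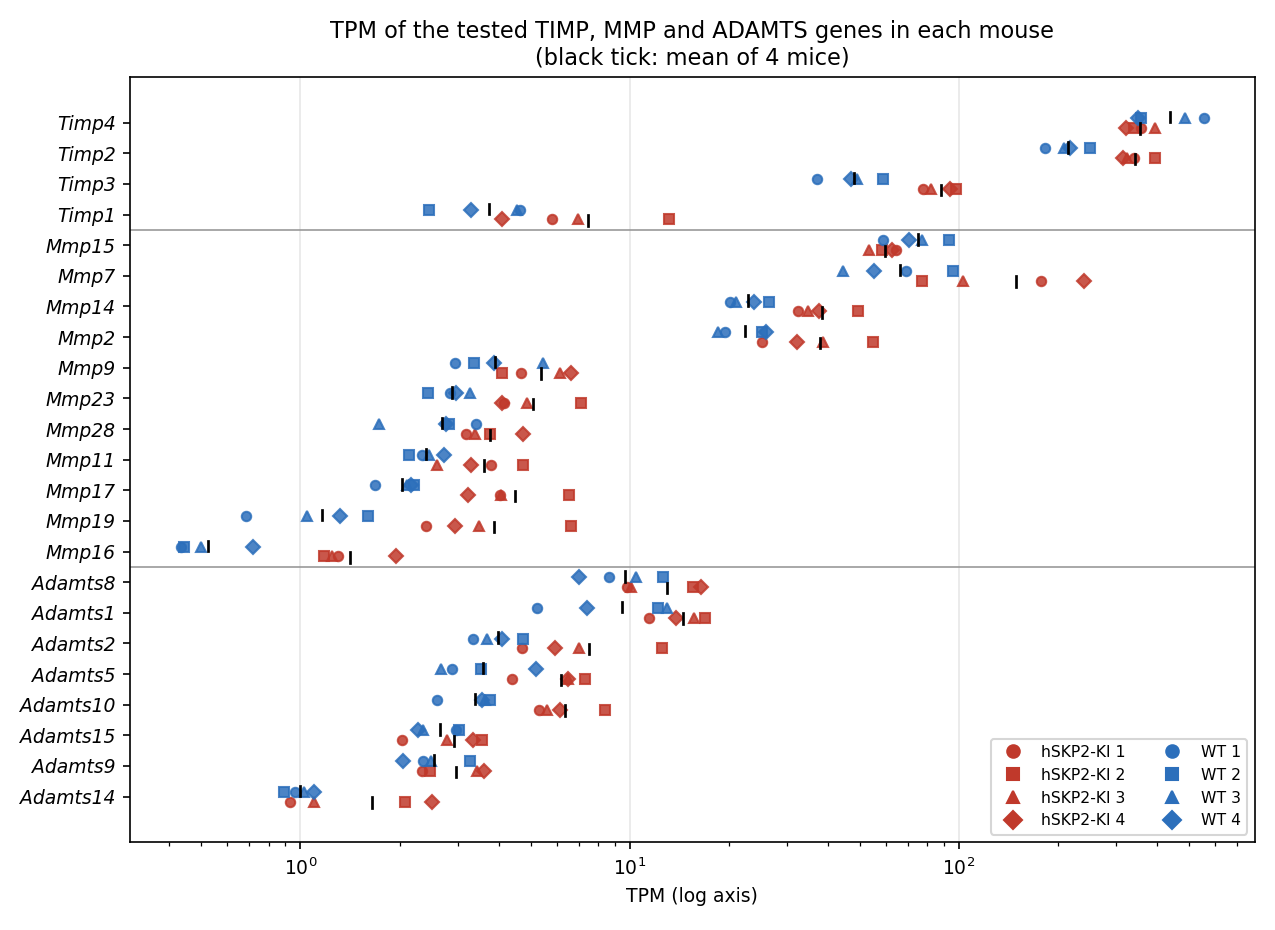
TPM (log axis) of the 23 tested members in each of the 4 hSKP2-KI (red) and 4 WT (blue) mice, with a black tick at each mean, grouped as TIMP, MMP and ADAMTS genes. Timp2 and Timp3 do not overlap between genotypes (for Timp2, 314 to 393 against 182 to 249 TPM), and the squares of hSKP2-KI replicate 2 are the highest red points of 14 members.

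Shares within a mouse do not depend on how the library was scaled. Timp4 made up 40.4 to 48.8% of the summed TIMP TPM in hSKP2-KI mice and 53.5 to 71.2% in WT mice. Timp2 made up 40.1 to 46.5% against 23.4 to 37.4%, and Timp3 9.97 to 12.8% against 4.75 to 8.81%. None of these ranges overlapped. The shares of a mouse add up to the whole, so a higher share of 1 gene lowers the others. These separations are therefore not independent of each other. The ratio of Timp2 to Timp4 was 0.822 to 1.15 in hSKP2-KI and 0.329 to 0.699 in WT mice. Timp1 stayed at 0.556 to 1.55% against 0.367 to 0.608%, with overlapping ranges. These ratios were chosen after the values were seen and are given without a test.

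**Figure D3:**
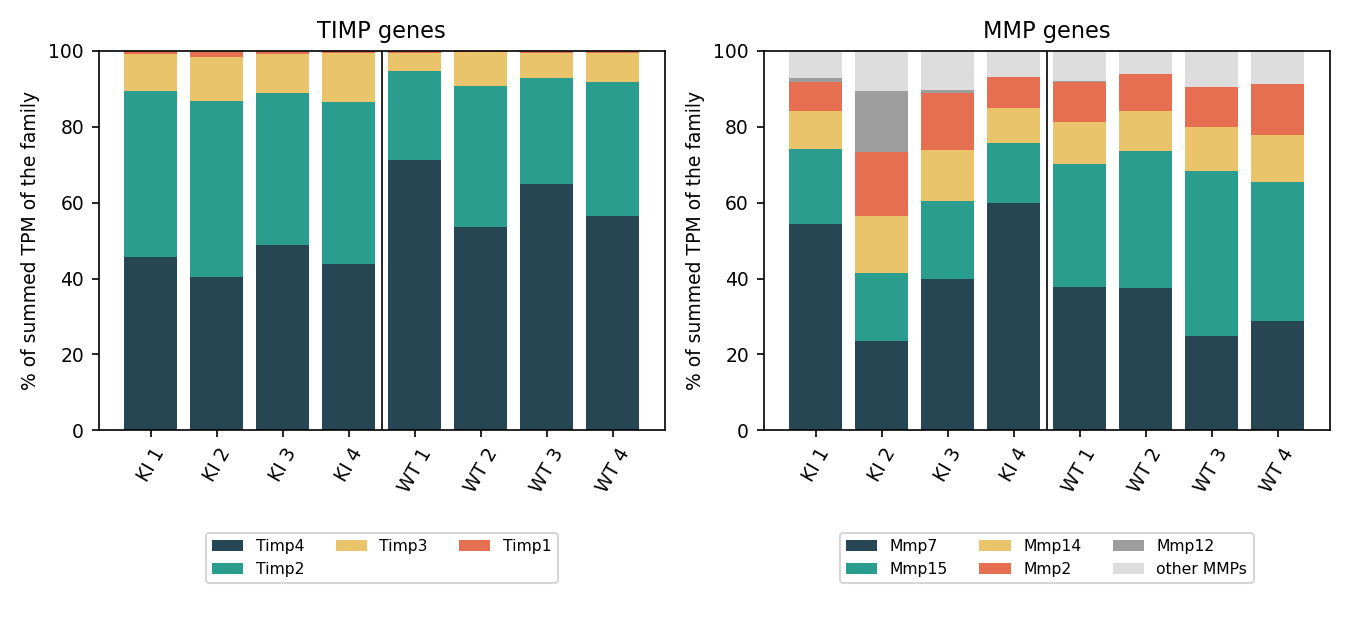
Share of the summed TPM of a family (y axis, %) taken by each TIMP gene (left) and by the main MMP genes (right) in each mouse, with KI for hSKP2-KI. The Timp4 part shrinks from 53.5 to 71.2% in WT mice to 40.4 to 48.8% in hSKP2-KI mice, the Mmp15 part from 32.2 to 43.3% to 15.7 to 20.7%, and Mmp12 is visible mainly in hSKP2-KI replicate 2.

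Of the 6 membrane-type MMPs, 4 were tested. Mmp14, Mmp16 and Mmp17 rose under either scaling, whereas Mmp15 was called lower after median-ratio scaling and was not called in the deposited values. Mmp14 (Entrez 17387, chr14:54431598-54442456), a collagenase of the cell surface and the activator of proMMP2, had 32.4, 49.4, 34.8 and 37.5 TPM in the hSKP2-KI mice and 20.2, 26.4, 21.1 and 23.9 TPM in the WT mice. The groups did not overlap and hSKP2-KI replicate 2 was the highest. With means of 38.5 ± 7.58 and 22.9 ± 2.85 TPM (SD, n = 4 each), its log2 fold change was 0.71 (standard error 0.13, limma adjusted p = 0.0043), and after median-ratio scaling it was 0.45 (adjusted p = 0.0316).

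Mmp15 (Entrez 17388, chr8:95352296-95374293), the membrane-type MMP closest to Mmp14 in sequence and known from epithelia, had 64.2, 58.2, 53.5 and 62.7 TPM in the hSKP2-KI mice and 58.8, 93.2, 77.5 and 70.5 TPM in the WT mice. WT replicate 1 lay among the hSKP2-KI mice. The means were 59.7 ± 4.84 and 75.0 ± 14.4 TPM (SD, n = 4 each) and the log2 fold change was -0.31 (standard error 0.13, limma adjusted p = 0.0755). Median-ratio scaling placed the hSKP2-KI mice at 48.8 to 60.2 and the WT mice at 71.1 to 94.5, without overlap, giving -0.57 on the log2 scale (adjusted p = 0.01). Leaving out WT replicate 1 from the deposited values gave -0.42 (adjusted p = 0.0255), and sample quality weights gave -0.33 (adjusted p = 0.0392). Mmp15 took 15.7 to 20.7% of the summed MMP TPM in hSKP2-KI mice and 32.2 to 43.3% in WT mice, and the ratio of Mmp14 to Mmp15 was 0.504 to 0.849 against 0.272 to 0.343, without overlap. The 7 epithelial marker genes, which were all tested, summed to 2220 to 2535 TPM in hSKP2-KI and 1923 to 2147 TPM in WT mice. Of these, 2 were called higher and 0 lower by limma (3 and 0 at an unadjusted p under 0.05). This was near the 32.7% of all tested genes called higher. After median-ratio scaling 0 were called (0 also unadjusted), where 6.91% of all tested genes were called higher.

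Mmp17 (Entrez 23948), a membrane-type MMP held by a lipid anchor, had 4.04, 6.55, 4.07 and 3.24 TPM in the hSKP2-KI mice and 1.68, 2.21, 2.10 and 2.16 TPM in the WT mice. Mmp16 (Entrez 17389), which like Mmp14 spans the membrane, was low throughout, with 1.3, 1.18, 1.25 and 1.95 TPM against 0.434, 0.442, 0.501 and 0.720 TPM. Both were without overlap between genotypes. The log2 fold change of Mmp17 was 0.82 (standard error 0.17, limma adjusted p = 0.00654), and that of Mmp16 was 0.66 (standard error 0.14, limma adjusted p = 0.00766), and median-ratio scaling gave 0.62 for Mmp17 (adjusted p = 0.0349) and 0.54 for Mmp16 (adjusted p = 0.0308). Under quantile normalization both lost the call (limma adjusted p = 0.0876 for Mmp17 and 0.0825 for Mmp16). Mmp24 and Mmp25 stayed under 1 TPM in every mouse.

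Of the gelatinases, which cut denatured collagen and basement membrane collagen, Mmp2 rose in the deposited values and Mmp9 did not pass the test. Mmp2 (Entrez 17390, chr8:92827290-92853421) had 25.3, 54.9, 38.6 and 32.3 TPM in the hSKP2-KI mice and 19.5, 25.3, 18.6 and 25.9 TPM in the WT mice. Replicate 2 of the hSKP2-KI mice was the highest, and replicate 1 lay within the WT range. The means were 37.8 ± 12.7 and 22.3 ± 3.81 TPM (SD, n = 4 each), and its log2 fold change was 0.69 (standard error 0.20, limma adjusted p = 0.0257). The call was lost after median-ratio scaling (0.43, adjusted p = 0.176), with no filter on low values (adjusted p = 0.0681) and without hSKP2-KI replicate 3, WT replicate 1 or WT replicate 3 (adjusted p = 0.0544, 0.0706 and 0.0678). Mmp9 (Entrez 17395), the gelatinase of neutrophils and macrophages among other cells, had 4.10 to 6.64 TPM against 2.96 to 5.44 TPM, a log2 fold change of 0.39 with a limma adjusted p of 0.107. It passed without WT replicate 3 (0.52, adjusted p = 0.0471) and with a replicate block (0.39, adjusted p = 0.0395).

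Mmp7 (Entrez 17393, chr9:7692090-7699585), matrilysin, a small MMP known to be made by glandular epithelium, was the most abundant MMP of the hSKP2-KI group and its spread was wide. It had 178, 77.1, 103 and 239 TPM in the hSKP2-KI mice and 69.0, 95.9, 44.5 and 55.3 TPM in the WT mice. Replicates 1 and 4 of the hSKP2-KI mice lay far above every WT mouse, and replicate 2, the mouse highest for most other members, lay below WT replicate 2. The means were 149 ± 73.7 and 66.2 ± 22.2 TPM (SD, n = 4 each), and the log2 fold change was 1.08 (standard error 0.33, limma adjusted p = 0.0289). The call was lost after median-ratio scaling (0.81, adjusted p = 0.149), with a robust empirical Bayes prior (adjusted p = 0.0813), with no filter on low values (adjusted p = 0.0804) and when hSKP2-KI replicate 1 or 4 or WT replicate 1, 3 or 4 was left out (adjusted p from 0.0601 to 0.0764). Of 8 proximal luminal and urothelial genes, 7 were tested, 7 were called higher and 6 after median-ratio scaling (32.7% and 6.91% of all tested genes). They summed to 1365, 1371, 1031 and 1132 TPM in the hSKP2-KI mice and to 479.6 to 740.6 TPM in the WT mice. No gene of the list was at 0 in all mice. Most of the sum was Upk1a, with 917.6, 983.5, 734.6 and 650.6 TPM in the hSKP2-KI mice. Single genes differed in their order of mice. Krt4 was highest in replicate 2 (214.6, 239.6, 163.2 and 117.5 TPM) and Psca in replicate 4 (105.1, 48.13, 59.49 and 208.9 TPM). Whether these cells contribute to the Mmp7 values was not tested.

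Mmp12 (Entrez 17381, chr9:7344397-7360461), macrophage elastase, was high in 1 mouse. It had 3.07, 52.4, 2.40 and 0.157 TPM in the hSKP2-KI mice and 0.358, 0.217, 0.319 and 0.206 TPM in the WT mice. Replicate 2 held 90.3% of the summed hSKP2-KI TPM, replicates 1 and 3 also lay above every WT mouse, and replicate 4 lay below all of them. The gene did not pass the filter, and its mean difference of 2.09 on the log2(TPM + 1) scale had p = 0.143 by exact permutation (2-sided, 70 ways to assign the mice, smallest possible p 0.0286). The difference was 0.985 (exact p = 0.143) without hSKP2-KI replicate 2 and 2.83 (exact p = 0.0286) without replicate 4, the mouse below all WT mice, and any other single mouse left out gave an exact p from 0.143 to 0.171. Trem2, a receptor of lipid-associated macrophages, was also highest in replicate 2, with 40.9 TPM. It had 4.67 to 10.0 TPM in the other hSKP2-KI mice and 2.36 to 4.76 TPM in the WT mice. Trem2 was not called (log2 fold change 1.25, limma adjusted p = 0.0811, and 0.244 after median-ratio scaling). All 8 macrophage genes were tested, with 6 called higher by limma and 0 after median-ratio scaling (5 at an unadjusted p under 0.05). Of all tested genes, 32.7% were called higher, and 6.91% after median-ratio scaling. The macrophage genes summed to 435.9 TPM in replicate 2, to 213.7 to 239.5 TPM in the other hSKP2-KI mice and to 94.8 to 196.9 TPM in the WT mice. No macrophage gene was at 0 in all mice. Of the 9 lipid-associated macrophage genes, 4 were called higher (2 after median-ratio scaling) and 0 lower. At an unadjusted limma p under 0.05, 1 was lower under either scaling. Spp1 and Fabp5 had log2 fold changes of -0.98 and -0.08 (limma adjusted p = 0.0812 and 0.713). The list summed to 590.6 TPM in replicate 2 against 372.4 to 436.1 and 228.8 to 301.5 TPM. Cd9 was the largest part of this sum, with 241.2 to 277.1 TPM in the hSKP2-KI mice. The contribution of macrophages to the Mmp12 value was not tested.

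**Figure D4:**
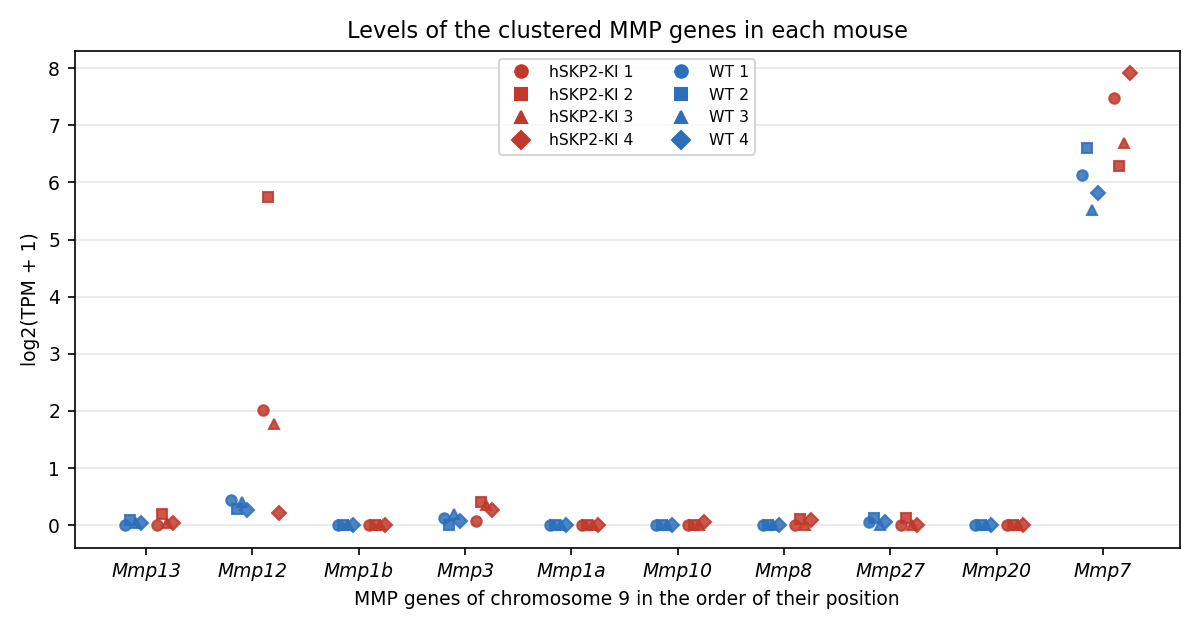
log2(TPM + 1) (y axis) of the 10 MMP genes of the chromosome 9 cluster in order of position, 1 point per mouse (red hSKP2-KI, blue WT). Mmp12 stands out in hSKP2-KI replicate 2 at 52.4 TPM, Mmp7 lies between 44.5 and 239 TPM in all mice, and the other 8 genes stay under 1 TPM.

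The collagenases and the other stromelysins were hardly detected. Mmp1a, Mmp1b and Mmp20, the enamel protease, were listed at 0 in all 8 mice, and Mmp8 and Mmp13, the collagenases of neutrophils and of bone and cartilage, reached at most 0.0794 and 0.146 TPM. Mmp1a and Mmp1b are close copies whose reads could be split between them. Mmp3, a stromelysin of stromal cells, had 0.0495 to 0.325 TPM in hSKP2-KI and 0 to 0.143 TPM in WT mice (exact permutation p = 0.0857). Mmp11 (Entrez 17385), the stromelysin of tumour-associated stroma, was the one tested, with 2.60 to 4.73 TPM against 2.13 to 2.72 TPM, a log2 fold change of 0.42 and a limma adjusted p of 0.0502. Without hSKP2-KI replicate 3, the one that overlapped the WT range, it was 0.53 (adjusted p = 0.0234), with a robust empirical Bayes prior 0.42 (adjusted p = 0.0498), and after median-ratio scaling of all mice 0.21 (adjusted p = 0.375).

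Mmp19 (Entrez 58223), a secreted MMP that cuts basement membrane proteins, showed the highest log2 fold change of all tested members. It had 2.40, 6.62, 3.49 and 2.94 TPM in the hSKP2-KI mice and 0.684, 1.61, 1.04 and 1.32 TPM in the WT mice. The groups did not overlap, and replicate 2 was highest in either group. With means of 3.86 ± 1.89 and 1.16 ± 0.394 TPM (SD, n = 4 each), the log2 fold change was 1.12 (standard error 0.24, limma adjusted p = 0.00724) and it remained past the threshold after median-ratio scaling (adjusted p = 0.0273) and in all 17 alternatives that tested it. Mmp23 (Entrez 26561), a membrane-bound MMP without the usual haemopexin domain, had 4.17, 7.13, 4.87 and 4.11 TPM against 2.84, 2.45, 3.28 and 2.96 TPM, without overlap. Its log2 fold change was 0.62 (standard error 0.16, limma adjusted p = 0.0144), and after median-ratio scaling it was 0.41 (adjusted p = 0.123). Mmp28 (Entrez 118453), epilysin, did not pass the test (3.18 to 4.76 against 1.73 to 3.42 TPM, log2 fold change 0.38, limma adjusted p = 0.0875). Mmp21 and Mmp27 stayed under 0.1 TPM.

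Gene models of several members overlap others, and the strand of counting is not stated, so reads of the partners cannot be told apart. Mmp19 overlaps Tmem198b, which had 6.01 ± 0.588 against 4.39 ± 0.808 TPM (log2 fold change 0.39, limma adjusted p = 0.0405, and after median-ratio scaling 0.16, adjusted p = 0.32). Mmp23 overlaps Mib2, which had 14.97 ± 1.17 against 11.6 ± 1.14 TPM (0.35, limma adjusted p = 0.0224, and 0.10, adjusted p = 0.508). Timp1, Timp3 and Timp4 lie within the synapsin genes Syn1, Syn3 and Syn2, which reached at most 1.59 TPM in any mouse.

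Among the ADAMTS genes, 8 of 19 were tested, and Adamts10, Adamts2 and Adamts5 rose in the deposited values. Adamts10 (Entrez 224697), a protease associated with fibrillin microfibrils, had 5.30, 8.43, 5.59 and 6.16 TPM in the hSKP2-KI mice and 2.60, 3.77, 3.64 and 3.55 TPM in the WT mice. The groups did not overlap. Its means were 6.37 ± 1.42 and 3.39 ± 0.532 TPM (SD, n = 4 each), and the log2 fold change of 0.74 (standard error 0.15, limma adjusted p = 0.00608) became 0.52 (adjusted p = 0.0313) after median-ratio scaling. It was the single ADAMTS gene called under both. Under quantile normalization Adamts10 lost the call (0.42, limma adjusted p = 0.0582).

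Adamts2 (Entrez 216725), a procollagen N-proteinase of fibrillar collagens, had 4.70, 12.5, 7.0 and 5.92 TPM in the hSKP2-KI mice and 3.34, 4.74, 3.69 and 4.11 TPM in the WT mice. Replicate 2 stood well above the others and replicate 1 lay just within the WT range. The log2 fold change was 0.71 (standard error 0.23, limma adjusted p = 0.0346), and 0.46 (adjusted p = 0.0507) without replicate 2. The call was also lost without hSKP2-KI replicate 3 or WT replicate 1, 3 or 4 (adjusted p from 0.059 to 0.0879), with no filter on low values (adjusted p = 0.0891) and after median-ratio scaling (0.48, adjusted p = 0.177). Of the other procollagen N-proteinases, Adamts14 (Entrez 237360) had 0.928 to 2.50 against 0.894 to 1.10 TPM (log2 fold change 0.37, limma adjusted p = 0.144), and Adamts3 stayed under 1 TPM.

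The proteoglycanases Adamts1, Adamts4, Adamts5, Adamts8, Adamts9, Adamts15 and Adamts20 cut versican, aggrecan or both. Adamts5 (Entrez 23794) had 4.40, 7.33, 6.51 and 6.50 TPM in the hSKP2-KI mice and 2.90, 3.55, 2.67 and 5.18 TPM in the WT mice, overlapping through WT replicate 4. Its log2 fold change was 0.66 (standard error 0.18, limma adjusted p = 0.0209). The call was lost without hSKP2-KI replicate 2, WT replicate 1 or WT replicate 3 (adjusted p from 0.0544 to 0.0587), with no filter on low values (adjusted p = 0.0589), with sample quality weights (adjusted p = 0.0525) and after median-ratio scaling (0.45, adjusted p = 0.116). Adamts8 (9.80 to 16.4 against 6.99 to 12.6 TPM, limma adjusted p = 0.145) and Adamts1 (11.5 to 17.0 against 5.24 to 13.0 TPM, limma adjusted p = 0.0584) were the most abundant ADAMTS genes, and neither passed. Adamts1, with a log2 fold change of 0.63, passed with a replicate block (adjusted p = 0.0123), with sample quality weights (adjusted p = 0.0352) and when WT replicate 2 or WT replicate 3 was left out (adjusted p = 0.0355 and 0.0338). Adamts9 and Adamts15 had log2 fold changes of 0.16 and 0.09 (limma adjusted p = 0.409 and 0.62), which turned to -0.04 and -0.11 after median-ratio scaling (adjusted p = 0.89 and 0.684).

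Below the filter were 23 members: 20 with a value above 0 in at least 1 mouse, and 3 listed at 0. Exact permutation tests of log2(TPM + 1) were run on the 20, and 2 had p = 0.0286, the smallest the design allows: Adamts7, a protease of vascular smooth muscle matrix, and Adamts19. They were the 2 of 20 without overlap, which is the same fact as this smallest p. Of all such genes, 6.06% were without overlap with hSKP2-KI higher. Adamts7 (Entrez 108153) had 0.581, 1.24, 0.866 and 0.840 TPM against 0.420, 0.437, 0.354 and 0.532 TPM. Adamts19 (Entrez 240322) had 0.237, 0.241, 0.149 and 0.211 TPM against 0.124, 0.1, 0.0630 and 0.0553 TPM. After median-ratio scaling both genes overlapped between genotypes. The lowest hSKP2-KI and highest WT values were then 0.545 and 0.564 for Adamts7, and 0.136 and 0.150 for Adamts19. In the deposited values, adjusted over all genes without a filter, the limma adjusted p was 0.047 for Adamts7 and 0.031 for Adamts19. The remaining ADAMTS genes below the filter (Adamts4, Adamts13, Adamts3, Adamts17, Adamts18, Adamts16, Adamts6, Adamts12 and Adamts20) had exact permutation p from 0.114 to 0.971, and of these Adamts17 alone exceeded 1 TPM, with 1.10 TPM in hSKP2-KI replicate 2.

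The highest hSKP2-KI value of a member lay in replicate 2 for 14 of the 23 tested members (60.9%), in replicate 4 for 7, and in replicates 1 and 3 for 1 each. Over all tested genes, replicate 2 was highest for 30.6%, and for 27.0% after median-ratio scaling, where it was still highest for 14 members. Of the 12 called members, 10 were highest in replicate 2, the exceptions being Mmp7 and Mmp16, both highest in replicate 4. Without replicate 2, 10 members were called higher (Adamts2 and Adamts5 were lost) with a median log2 fold change of 0.49. Of all 13080 tested genes, 3033 were then called in either direction, with a median of 0.23. With median-ratio scaling and without replicate 2, 7 members were called higher and 1 lower with a median of 0.27. Of all tested genes, 944 were then called in either direction, with a median of -0.0047. The fibroblast list also peaked in this mouse. Its 10 genes, all tested and all called higher (4 after median-ratio scaling), summed to 2005 TPM in replicate 2, to 1158 to 1414 TPM in the other hSKP2-KI mice and to 665.1 to 883.9 TPM in the WT mice. The 8 smooth muscle genes, all called higher (5 after median-ratio scaling), summed to 4697 TPM in replicate 2, to 3068 to 4061 TPM in the others and to 2066 to 2601 TPM in the WT mice. Of all tested genes, 32.7% were called higher, and 6.91% after median-ratio scaling. No fibroblast or smooth muscle gene was at 0 in all mice, and the contribution of these cells to the member values was not tested.

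**Figure D5:**
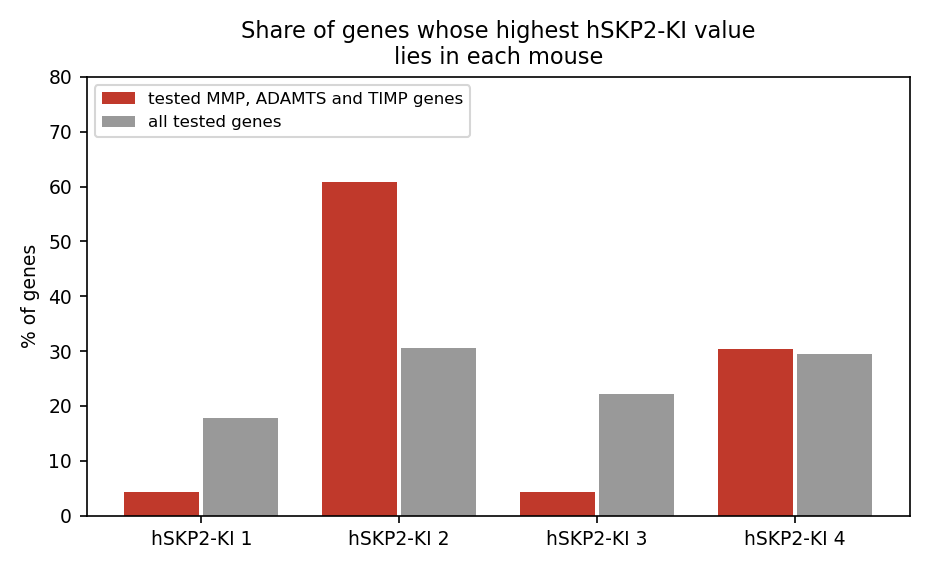
Share of genes (y axis, %) whose highest hSKP2-KI value lies in each hSKP2-KI mouse, for the 23 tested members (red) and all 13080 tested genes (grey). Replicate 2 is highest for 60.9% of the members and 30.6% of all genes, and replicate 4 for 30.4% and 29.5%.

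For the other cell type lists, the background of genes called higher was again 32.7%, and 6.91% after median-ratio scaling. Of 8 endothelial genes, 6 were called higher (2 after median-ratio scaling), with sums of 55.5 to 90.2 against 34.2 to 46.9 TPM. Basal epithelial genes were called in 2 of 4, skeletal muscle genes in 1 of 4 tested, Schwann cell genes in 1 of 4 (both shares below that background) and T cell genes in 2 of 3 tested, with Trac and Trbc2 at 0, and 0 of these were called after median-ratio scaling (at an unadjusted limma p under 0.05, 1, 1, 1 and 2 were higher). The 4 B cell and 5 adipocyte genes had 0 calls by limma under either scaling, also at an unadjusted p under 0.05. The 6 neutrophil genes, which were below the filter, summed to 1.37 to 5.90 TPM in hSKP2-KI and 0.37 to 1.37 TPM in WT mice.

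Summed over each family, the MMP genes reached 258.3 to 399.3 TPM in hSKP2-KI and 178.9 to 256.5 TPM in WT mice, without overlap, and 178.5 ± 47.9 against 136.4 ± 19.3 TPM (SD, n = 4 each) without Mmp7, with overlap. The ADAMTS genes summed to 43.7 to 73.9 against 31.0 to 46.8 TPM and the TIMP genes to 735.1 to 845.5 against 617.9 to 777.5 TPM, both with overlap. After median-ratio scaling, the MMP sums also overlapped (235.8 to 355.6 against 200.2 to 260.3), the ADAMTS sums were 40.99 to 66.7 against 37.5 to 47.5, and the mean TIMP sum was lower in hSKP2-KI mice, at 721.7 ± 46.7 against 776.8 ± 135 (SD, n = 4 each), within the spread. The ratio of TIMP to MMP TPM was 2.48 ± 0.528 in hSKP2-KI and 3.56 ± 0.797 in WT mice (SD, n = 4 each), with ranges of 1.84 to 3.12 and 2.60 to 4.26 that overlapped. TIMP to ADAMTS was 13.9 ± 3.00 and 18.7 ± 4.57. These sums are dominated by Timp4, Timp2, Mmp7 and Mmp15 and measure transcripts, not protease activity.

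Other genes of the same system were mostly higher in the deposited values. In any of the 7 lists, 0 were called lower by limma, also at an unadjusted p under 0.05. Of all tested genes, 32.7% were called higher and 1.23% lower, and after median-ratio scaling 6.91% and 4.25%. In lists this short, 0 lower calls lie near the share over all genes. Of 12 genes listed as other protease inhibitors or their relatives, 7 were tested and 6 called higher (4 after median-ratio scaling). Not all of the list act on MMPs. The calls ranged from Serpine2, a protease nexin of the matrix (log2 fold change 1.07, limma adjusted p = 0.00113), to Reck, a membrane-anchored MMP inhibitor (0.45, adjusted p = 0.0282). After scaling, Serpine2, Serping1, Spock2 and Cst3 kept the call, and Reck lost it (limma adjusted p = 0.221). Of 8 genes of the plasminogen system and the proprotein convertases, which activate MMP proenzymes, 7 were tested and 4 called higher (3 after scaling), from Plaur, the urokinase receptor, with 0.81 to Furin, which activates the membrane-type MMPs, with 0.51. The list of other matrix proteases also holds Pcolce and Pcolce2, which are enhancers of a procollagen protease and not proteases. Of its 14 genes, 9 of 9 tested were called higher (2 after scaling, Htra3 and Pcolce2). The calls ranged from Ctss, a cathepsin of macrophages, with 1.2 to Htra1, a secreted serine protease, with 0.57. Ctss had 98.3 TPM in hSKP2-KI replicate 2 and 20.6 to 31.2 TPM in the other hSKP2-KI mice. It lost the call after scaling (limma adjusted p = 0.158).

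Of 11 genes of the related ADAM family, 9 were tested and 7 called higher (1 after scaling), from Adam28 with 0.85 to Adam10, a main sheddase, with 0.41. Of 7 ADAMTS-like genes in the table, which resemble ADAMTS proteins but lack the protease domain, 5 were tested. Of these, 2 were called higher, near the share of 32.7% over all tested genes: Adamtsl5 with 0.75 and Thsd4 with 0.52. Adamtsl5 was also called after scaling. All 6 cell surface partners of MMPs were tested and 5 called higher, from Lrp1, which takes up MMPs and TIMPs, with 0.71 to Cd63, a tetraspanin that binds TIMP1, with 0.27, and 0 after scaling (1 at an unadjusted limma p under 0.05). Of 6 proteoglycan genes, 3 were tested and 2 called higher, Dcn with 0.87 and Bgn with 0.81, of which Dcn was also called after scaling.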

How the data were processed

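Ventral prostate RNA of 4 hSKP2-KI and 4 WT mice was sequenced, 1 library per mouse, and groups follow the genotype in the sample labels. The authors deposited 1 table of TPM made with CLC software. The submitters' processing notes name mm10 and GRCm38. The software version, annotation, counting options and strand are not given in the sources used here. TPM carries no counts, so depth is unknown and no count model or counting interval was used. The table holds 0 columns of other samples.

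Genotypes were compared with limma (version 3.58.1, R 4.3.3), fitted to log2(TPM + 1) with a trended empirical Bayes prior, for genes with at least 1 TPM in at least 4 samples, with Benjamini-Hochberg adjustment over all 13080 and a threshold of 0.05. The procedure was tested on simulated data. Members below the filter were compared by a 2-sided exact permutation test. All 46 members were matched by Entrez identifier to RefSeq (GRCm38.p6), which gave coordinates and promoters, and 32 of them had a promoter entry.

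The members and gene lists were chosen with earlier results of these data known. Per-mouse values were given for the 4 TIMPs, for every member called under the deposited or the median-ratio values, and for any member with over 50% of the TPM of its genotype in 1 mouse and at least 1 TPM there. For the other lists, the called genes with the highest and lowest log2 fold change were named, and for the marker lists counts and summed TPM. Adamts7, Adamts19, Trem2, Spp1, Fabp5, Cd9, Upk1a, Krt4, Psca, Msmb and Spink1 were named after their values were seen. Alternatives were median-ratio scaling, quantile normalization, leaving the 20 most abundant genes out of TPM, a pseudocount of 0.1, no filter or one on mean TPM (5 or more), quality weights for samples, a robust prior, a replicate block, each mouse left out, and, chosen after seeing the data, median-ratio scaling without hSKP2-KI replicate 2. Plots were made in Python 3.11.15 (matplotlib 3.10.9).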

Additional observations from a re-analysis of the deposited data

Results flagged for a closer look

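In 3 groups of 4 mice, 1 mouse stood apart from the other 3 by Dixon's criterion (the gap to the nearest mouse, divided by the whole range, above the 95% critical value), among 48 groups that reached 1 TPM, each examined on the TPM and the log2(TPM + 1) scale. For normal values on a single scale, chance flags about 1 in 20 groups, and more when either of the scales may flag. Mmp12 stood apart in hSKP2-KI replicate 2 at 52.4 TPM, with a gap of 0.944 of the range on the TPM scale. Mmp16 stood apart in hSKP2-KI replicate 4 at 1.95 TPM, with a gap of 0.848 on the TPM scale. Both were within the limit on the log2 scale. Adamts10 stood apart in WT replicate 1, its lowest value at 2.60 TPM, on the log2 scale and not on the TPM scale.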

How the results depend on the processing

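Scaling mattered most. Members called higher, 12 in the deposited values, numbered 7 under median-ratio scaling, 4 under quantile normalization, 7 without the 20 most abundant genes, 6 with a mean TPM of at least 5 (which tests fewer genes), and 7 with median-ratio scaling without hSKP2-KI replicate 2, an alternative chosen after seeing the data. With no filter on low values they numbered 8 among the 23 tested members, as Mmp7, Mmp2, Adamts2 and Adamts5 lost the call, and Adamts7 and Adamts19 were called besides. They numbered 8 to 13 when 1 mouse was left out, 8 without WT replicate 1. Members called lower, 0 in the deposited values, numbered 1 (Mmp15) under median-ratio scaling with or without hSKP2-KI replicate 2, quantile normalization, removal of the 20 most abundant genes and sample quality weights, and 0 to 1 when 1 mouse was left out. All tested genes called, 4433 in the deposited values, fell to 1460 under median-ratio scaling and 1317 under quantile normalization. They numbered 1321 without the 20 most abundant genes and 944 with median-ratio scaling without hSKP2-KI replicate 2. With no filter they numbered 3416, with a mean TPM of at least 5 they numbered 3434, and with 1 mouse left out 2993 to 4677. The difference of Mmp12 was 0.985 to 2.83 when 1 mouse was left out. Log2 fold changes that turned negative were those of Adamts9 (-0.0386 under median-ratio scaling, -0.17 under quantile normalization, -0.026 without the 20 most abundant genes) and Adamts15 (-0.11, -0.24 and -0.10, and -0.18 with median-ratio scaling without hSKP2-KI replicate 2), none called. Of 402 single-member values under the alternatives, 334 kept their direction and call, 45 lost the call, 16 gained one and 7 turned. The cause of these changes was not tested.

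It could not be settled whether the replicate numbers pair the mice. Across genes, the deviations of same-numbered mice from their genotype means correlated at 0.22, -0.11, 0.17 and -0.01. By these deviations, 4 of 8 mice correlated best with their own number in the other genotype. With a replicate block, 14 members were called higher, 0 lower, and 5128 genes in all. Depth is unknown, so differences of members below 1 TPM cannot be weighed against counting error.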
